A study of Mus musculus with 6 samples.

Results

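The genes described here fold, stress-proof, degrade and export proteins of the endoplasmic reticulum (ER), with the helpers that collagen needs on its way out of the cell. They are 37 genes taken by name from a list of ER chaperones, stress factors and collagen secretion genes, out of 17524 genes in the table. The rule used names and no measured value, but the list was chosen with earlier results of these data known. All 37 were found by symbol, and all 37 passed the filter on low counts, with at least 26 estimated counts in every library. The question of the series was whether transcription factor EB (TFEB), which drives genes of lysosomes and autophagy, holds back the activation of cardiac fibroblasts after infarction. RNA was sequenced from 6 mouse heart libraries. The control group of 3 libraries (35, 36 and 37) is labelled with the genotype WT. The TFEB group of 3 libraries (34, 41 and 43) is labelled as TFEB overexpression. The design text names the line as R26-LSL-TFEB [+/+]; Acta2-cre, in which Cre under the promoter of Acta2, a gene of smooth muscle and myofibroblasts, switches on a TFEB cassette at Rosa26. In both groups the left anterior descending coronary artery was tied off. The sources used here do not give the age of the animals, the time after ligation, or whether the controls carried Cre or the cassette. No source says whether each library is a different animal. The p-values therefore reflect the spread between these libraries, which may be technical.

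Proteins bound for secretion enter the ER through the Sec61 channel, fold with the help of chaperones and disulfide isomerases, and leave in COPII-coated vesicles. When unfolded protein builds up, the sensors IRE1, PERK and ATF6 switch on chaperone and degradation genes, which is called the unfolded protein response. IRE1 acts by cutting a short intron out of the Xbp1 messenger RNA, PERK raises the translation of ATF4, and ATF6 is itself cleaved into a transcription factor. Procollagen is an unusually demanding cargo: its chains are hydroxylated, held by the dedicated chaperones HSP47 (Serpinh1) and FKBP65 (Fkbp10), and exported with the help of the large receptor TANGO1 (Mia3). Fibroblasts of a healing infarct are the main collagen makers of the heart.

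Many of these genes are known targets of the unfolded protein response, and the sequences below show matches to the letters of elements known from that response. The ER stress response element (ERSE) is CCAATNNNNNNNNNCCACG and binds NF-Y with ATF6 or XBP1. ERSE-II, ATTGGNCCACG, has the same parts, CCAAT (read on the other strand) and CCACG, in another arrangement. The unfolded protein response element (UPRE) used here was TGACGTGG, whose opposite strand holds the CCACG part of ERSE. Both strands of the RefSeq promoter windows (GRCm38.p6, 250 bases before to 50 after each start) were searched. Windows were present for 31 of the 37 genes and are not analysed here for Hyou1, Manf, Atf6, Sec61a1, Creb3l1 and Fkbp10. ERSE was found in 8 of these 31 genes (25.8%), against 37 of 27025 genes with a window (0.137%). The 8 genes were Hspa5, Hsp90b1, Dnajc3, Creld2, Calr, Canx, Pdia6 and Syvn1. ERSE-II was in 2 (Dnajb11 and Herpud1; 0.044% of all windows). UPRE was in 3 (Sec23a, Sec24d and Kdelr3; 0.714% of all windows). The amino acid response element TGATGNAA was in 2 (Trib3 and Herpud1; 4.51% of all windows). TCACGTGA, a core of the element that TFEB binds at lysosomal genes, was in 1 (Calr; 1.12% of all windows). These are matches of letters and not measured binding sites, and the list was assembled around known stress genes, so the shares describe its make-up.

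The windows shown are from the chaperones whose values by library are described below, from 1 degradation gene and from Kdelr3, with the motif in capitals. They lie at chr2:34772013-34772055 on the plus strand (Hspa5), chr10:86705626-86705668 and chr10:86705521-86705563 on the minus strand (Hsp90b1, which holds ERSE in both orientations), chr15:88819508-88819550 on the plus strand (Creld2), chr8:84847063-84847105 on the minus strand (Calr), chr12:17266479-17266521 on the plus strand (Pdia6), chr8:94386365-94386399 on the plus strand (Herpud1, ERSE-II) and chr15:79516366-79516397 on the plus strand (Kdelr3, UPRE).
Hspa5: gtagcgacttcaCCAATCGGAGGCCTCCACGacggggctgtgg
Hsp90b1, distal: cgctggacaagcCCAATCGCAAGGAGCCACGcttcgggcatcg
Hsp90b1, proximal: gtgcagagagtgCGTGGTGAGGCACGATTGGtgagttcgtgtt
Creld2: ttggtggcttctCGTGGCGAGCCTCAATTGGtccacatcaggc
Calr: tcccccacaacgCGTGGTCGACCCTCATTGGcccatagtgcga
Pdia6: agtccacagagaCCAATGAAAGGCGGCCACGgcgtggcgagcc
Herpud1: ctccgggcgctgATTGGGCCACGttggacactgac
Kdelr3: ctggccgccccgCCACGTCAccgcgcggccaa
In Creld2, Calr, Kdelr3 and the proximal Hsp90b1 match, the capitals read as the opposite strand of the motif. The Hspa5 match begins 65 bases and the Kdelr3 match 30 bases upstream of the annotated start.

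The libraries were of similar depth, with totals from 12942480 to 14969287 estimated counts. The labels call the tissue heart and also call the cells primary fibroblasts and fibrocytes. Myh6, the main cardiomyocyte myosin, stood at 23130 to 49160 CPM (the count of a gene scaled to the library total and its TMM factor), so heart muscle RNA dominated. Tfeb itself stood at 34.4, 33.8 and 41.4 CPM in control libraries 35, 36 and 37 and at 45.4, 45.2 and 39.4 CPM in the TFEB libraries 34, 41 and 43 (log2 fold change 0.25, SE 0.12, edgeR adjusted p = 1.00). Over all 13565 genes tested with edgeR, 0 were called at an adjusted p under 0.05 (0.0%), while 164 had an unadjusted p under 0.05 (1.21%). DESeq2 called 1 (0.00737%). The 6 libraries spanned a wide range of scar genes. The summed CPM of 5 fibrillar procollagen genes ran from 1573 to 8369 in controls and from 1182 to 13380 in the TFEB group.

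No member differed between TFEB overexpression and control beyond the spread between libraries. Of the 37 genes, 0 were called by edgeR (0.0% of all genes) and 0 had an unadjusted p under 0.05 (1.21% of all genes). DESeq2 also called 0 of the 37 (0.00737% of all genes). Its only unadjusted p under 0.05 among the 37 was that of Calr (0.0407, DESeq2), against 202 of all 13565 genes. A higher value in the TFEB group was seen for 26 of 37, with a median log2 fold change of 0.12, against 51.0% of all genes and a median of 0.003. With a library left out, the median of the 37 ran from 0.02 without TFEB 41 to 0.20 without control 36. The fold changes lay between −0.29 for Herpud1 and 0.51 for Kdelr3. The smallest unadjusted edgeR p, 0.0814, belonged to Pdia6, with an adjusted p of 1.00. Intervals were narrow for some genes and wide for others. For Sel1l the ratio was 1.03 (95% interval 0.895 to 1.195), and for Kdelr3 it was 1.42 (95% interval 0.645 to 3.14).

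**Figure D1:**
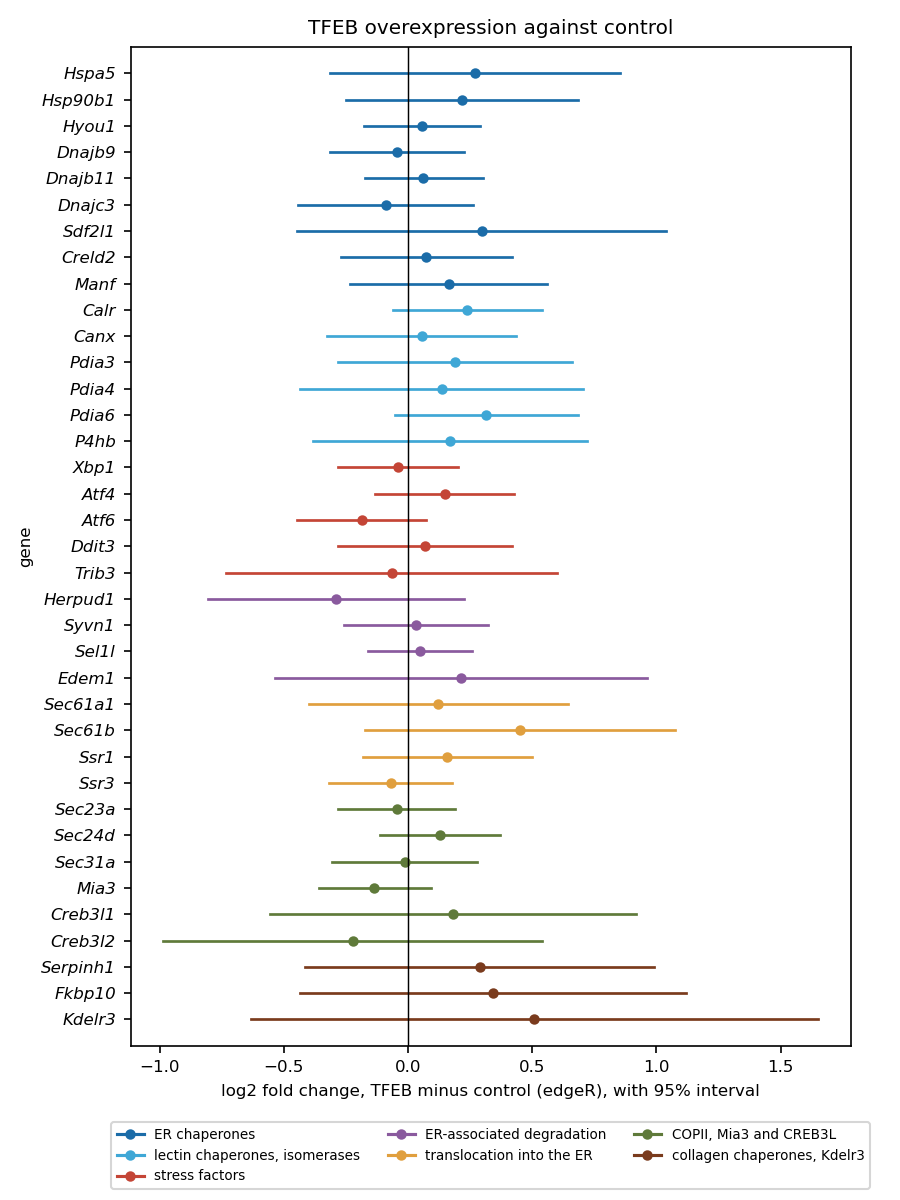
Log2 fold change of each of the 37 genes, TFEB overexpression minus control, from edgeR (x axis, log2 scale; points are estimates and lines are 95% intervals; 3 libraries a group), coloured by role. The interval of every gene crosses 0, and estimates run from −0.29 for Herpud1 to 0.51 for Kdelr3.

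Only 2 of the 37 genes (5.41%) had groups that did not overlap, against 645 of all genes (4.75%). Calr encodes calreticulin, a lectin chaperone that binds glycoproteins and calcium (Entrez 12317, mm10 chromosome 8, 84842088 to 84846931). It stood at 303, 358 and 324 CPM in control libraries 35, 36 and 37 and at 366, 421 and 376 CPM in the TFEB libraries 34, 41 and 43. Each TFEB library was above each control, by a small margin between TFEB 34 and control 36. The fitted ratio was 1.18 (95% interval 0.958 to 1.45; log2 fold change 0.24, SE 0.12, edgeR adjusted p = 1.00). Among all genes, 2.24% were separated in the higher direction and 2.51% in the lower one. Mia3, the collagen export receptor TANGO1 (Entrez 338366, chromosome 1, 183326236 to 183369565), was the gene separated in the lower direction. It stood at 135.8, 140.8 and 136.3 CPM in the controls and at 135.3, 118.2 and 122.5 CPM in the TFEB group. TFEB 34 was thus just under the lowest control, and with RLE scaling the groups of Mia3 overlapped. The estimate was −0.13 on the log2 scale (SE 0.09, edgeR adjusted p = 1.00). On log2(TPM + 1) neither gene was separated.

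The members differed in level and in how much they varied between libraries. Per length of transcript, the most abundant were Hspa5 at 459 ± 91.4 TPM, Calr at 352 ± 48.6 TPM, Serpinh1 at 350 ± 119 TPM and Hsp90b1 at 302 ± 59.1 TPM (TPM, the deposited abundance corrected for transcript length; mean and SD over 6 libraries). The least abundant were Trib3 at 3.01 ± 0.660 TPM and Creb3l1 at 9.37 ± 2.96 TPM. The SD of log2(CPM + 1) over the 6 libraries was lowest for Sel1l (0.053) and Ssr3 (0.072). It was highest for Kdelr3 (0.67), Fkbp10 (0.45), Creb3l2 (0.43), Edem1 (0.42) and Serpinh1 (0.41). Adding 1 lowers the spread of genes with few counts. Between the highest and the lowest library, Kdelr3 differed 3.76-fold and Sel1l 1.09-fold.

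**Figure D2:**
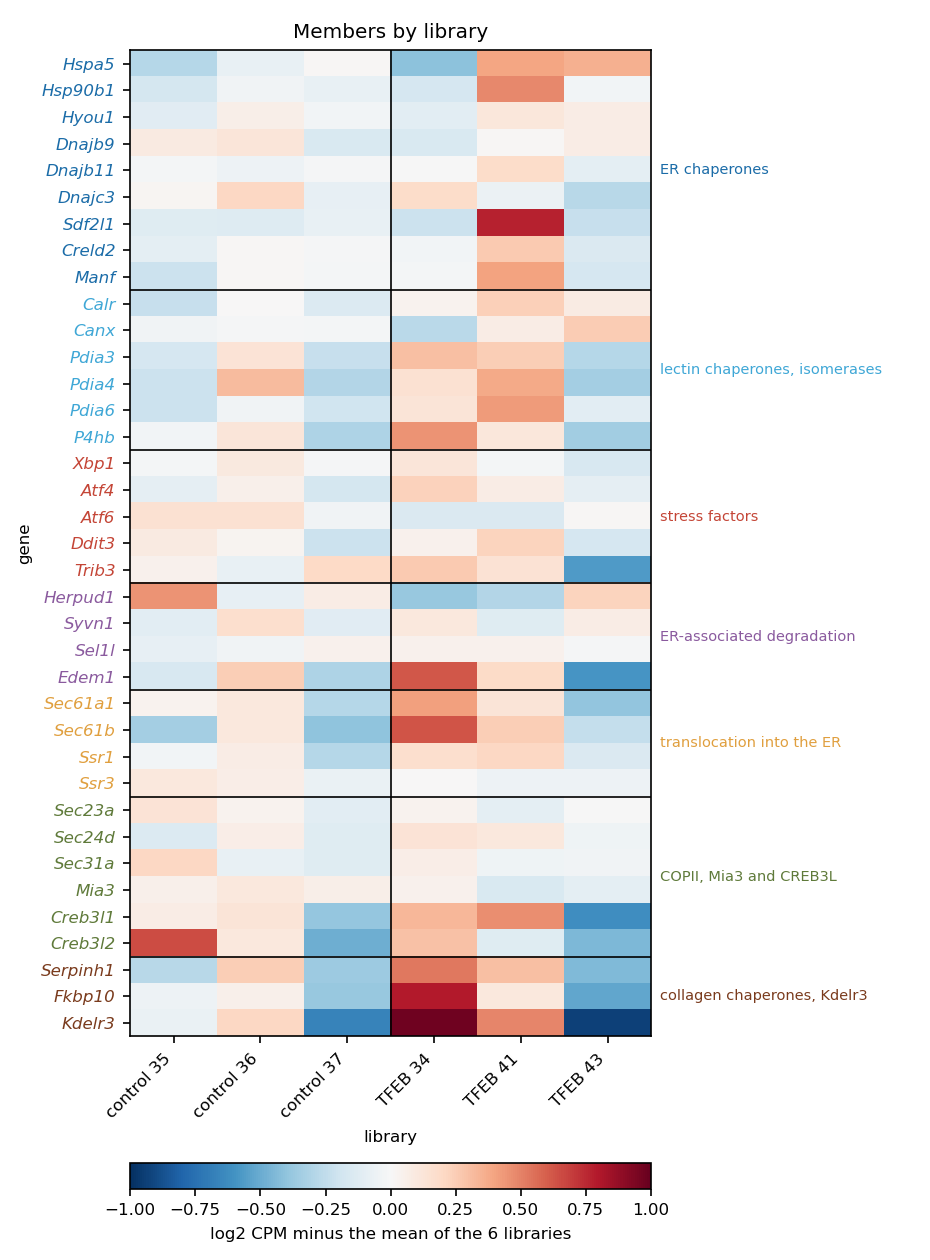
Log2 CPM of each gene minus its mean over the 6 libraries (colour, from −1 to 1), with the 37 genes in rows grouped by role and the 3 control and 3 TFEB libraries in columns. TFEB 41 is the highest column for 7 of 9 ER chaperones, while Serpinh1, Fkbp10 and Kdelr3 are highest in TFEB 34.

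The ER chaperones and their cochaperones were mostly highest in 1 TFEB library, TFEB 41, and did not separate the groups. Hspa5 encodes BiP, the ER Hsp70 and the standard readout of the unfolded protein response (Entrez 14828, chromosome 2, 34772090 to 34776529). It stood at 514, 595 and 633 CPM in control libraries 35, 36 and 37 and at 472, 826 and 801 CPM in the TFEB libraries 34, 41 and 43. TFEB 41 and 43 were above every control and TFEB 34 below every control, so the groups overlapped. The means were 580 ± 60.9 and 700 ± 197 CPM (SD, n = 3 each), with a log2 fold change of 0.27 (SE 0.24, edgeR adjusted p = 1.00), which was 0.49 without TFEB 34.

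Hsp90b1 (GRP94), the ER form of Hsp90, stood at 400, 441 and 428 CPM in the controls and at 402, 630 and 444 CPM in the TFEB group. Here TFEB 41 alone was set apart, 1.42 times the next library. Sdf2l1, a cofactor of the BiP cochaperone system, showed the same shape more strongly, with 5.37, 5.34 and 5.52 CPM in the controls and 5.03, 9.96 and 4.96 CPM in the TFEB group. The other 5 libraries of Sdf2l1 lay within 4.96 to 5.52 CPM, and TFEB 41 was 1.80 times the next. Manf, a secreted protein induced by ER stress, was at 56.9 CPM in TFEB 41 and at 37.04 to 43.46 CPM elsewhere. Creld2, another induced ER protein, was at 15.9 CPM in TFEB 41 and at 11.98 to 13.34 CPM elsewhere.

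Of the 9 genes of this role, 7 had their highest value in TFEB 41, against 8.37% of all genes (1135 of 13565). These 7 were Hspa5, Hsp90b1, Hyou1, Dnajb11, Sdf2l1, Creld2 and Manf. Hyou1, the exchange factor that reloads BiP, differed little, with 68.7 CPM in TFEB 41 and 58.8 to 66.8 CPM elsewhere. The J-domain partners were not all alike: Dnajb11 was at 79.2 CPM in TFEB 41 and 65.0 to 69.5 CPM elsewhere, while Dnajb9 and Dnajc3 were highest in control 36, at 48.2 and 99.4 CPM. As a group the 9 genes had 7 higher and 2 lower values in the TFEB group, with a median log2 fold change of 0.07, and −0.004 without TFEB 41. Without TFEB 41, Sdf2l1 stood at −0.10, Creld2 at −0.04 and Manf at −0.004.

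**Figure D3:**
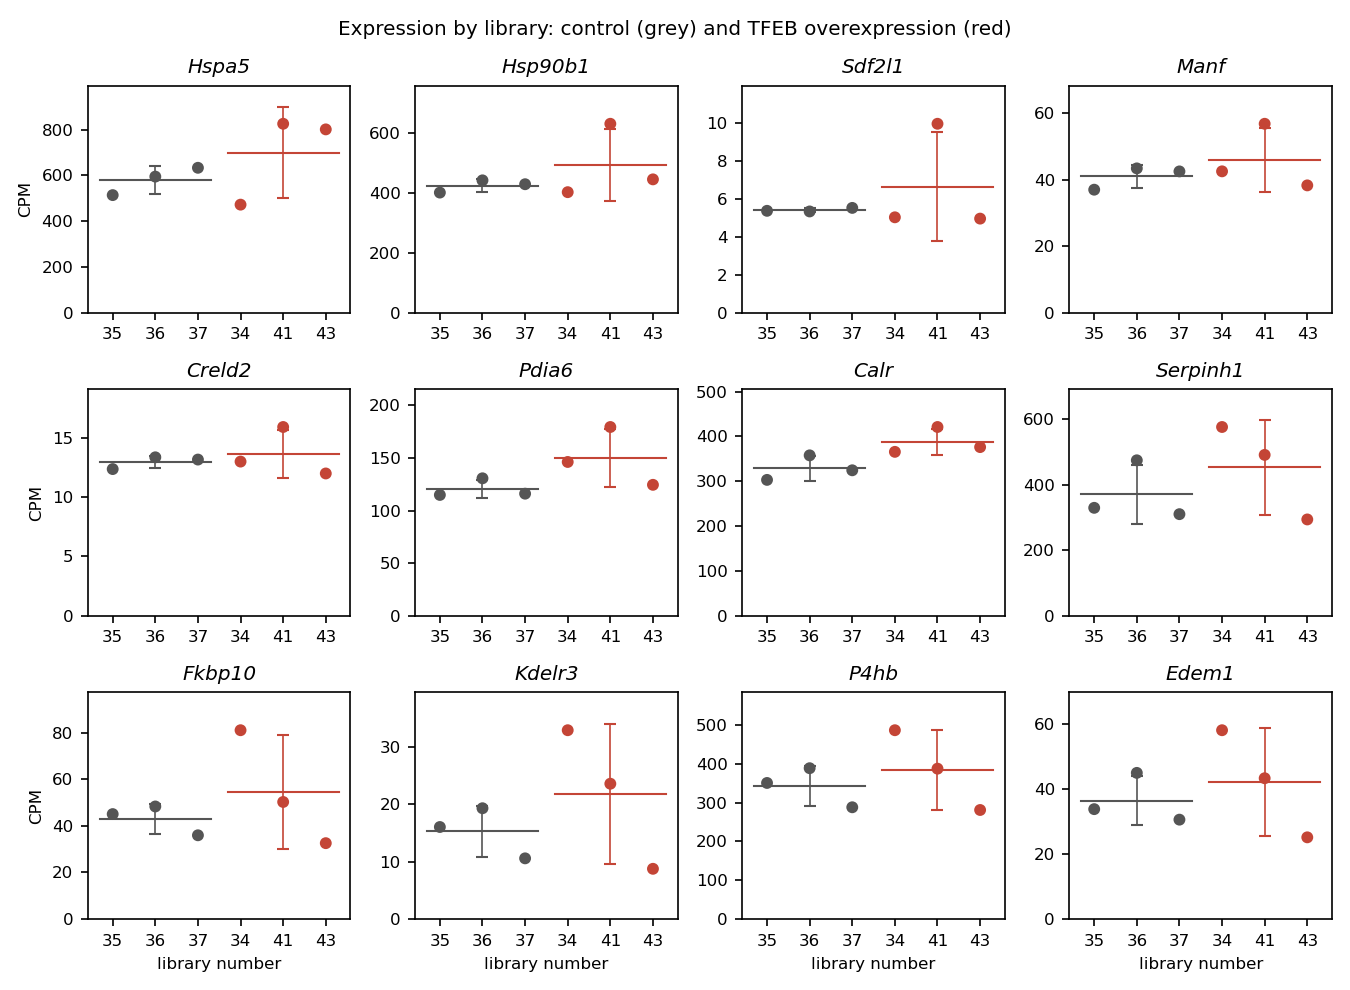
CPM of 12 of the genes in each library (y axis from 0; x axis, library number; grey, control; red, TFEB overexpression; horizontal lines are group means and bars are SD, n = 3 each). Sdf2l1 stands at 9.96 CPM in TFEB 41 and between 4.96 and 5.52 CPM in the other libraries, and Kdelr3 runs from 8.76 CPM in TFEB 43 to 32.9 CPM in TFEB 34.

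The lectin chaperones and disulfide isomerases shared part of this shape. All 6 had a higher value in the TFEB group, with a median log2 fold change of 0.18 (from 0.09 to 0.33 with a library left out), and 0 passed. Calr, Pdia4 and Pdia6 were highest in TFEB 41, Pdia3 and P4hb in TFEB 34 and Canx in TFEB 43. Pdia6, an isomerase that also restrains the stress sensors, stood at 115, 131 and 116 CPM in control libraries 35, 36 and 37 and at 146, 179 and 124 CPM in the TFEB libraries 34, 41 and 43. TFEB 43 lay below control 36, so the groups overlapped, and the fitted ratio was 1.24 (95% interval 0.964 to 1.61). Pdia3, the isomerase that works with calnexin and calreticulin, ran from 210 to 271 CPM in the controls and from 201 to 304 CPM in the TFEB group. Canx, the membrane-bound partner of calreticulin, was nearly level in the controls (367 to 372 CPM) and ran from 311 CPM in TFEB 34 to 446 CPM in TFEB 43. Calreticulin and calnexin were therefore ordered differently within the TFEB group. P4hb, which is both an isomerase and the small subunit of collagen prolyl hydroxylase, ran from 288 to 388 CPM in the controls and from 281 to 486 CPM in the TFEB group.

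The stress transcription factors and their effectors varied little. Of the 5 genes, 2 had a higher and 3 a lower value in the TFEB group, with a median log2 fold change of −0.04, which was 0.14 without TFEB 43. Atf4, the factor downstream of PERK and of amino acid shortage (Entrez 11911, chromosome 15, 80255184 to 80257545), was measured at 77.1, 84.8 and 72.7 CPM in the controls and at 96.4, 86.3 and 77.2 CPM in the TFEB group. TFEB 43 lay within the controls (log2 fold change 0.15, SE 0.12, edgeR adjusted p = 1.00). Ddit3, which encodes the proapoptotic factor CHOP (Entrez 13198, chromosome 10, 127290793 to 127296291), was measured at 20.3, 19.4 and 16.4 CPM in the controls and at 19.7, 22.2 and 16.9 CPM in the TFEB group. The groups overlapped, with TFEB 41 the highest and control 37 the lowest library (0.07, SE 0.15, edgeR adjusted p = 1.00). Trib3, a pseudokinase induced by ATF4 and CHOP, was low throughout, with 2.15 to 3.82 CPM from 26 to 60 counts. Atf6 was at 176 to 201 CPM in the controls and at 163 to 182 CPM in the TFEB group (−0.19, SE 0.11).

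Xbp1 as a whole gene (Entrez 22433, chromosome 11, 5520641 to 5525993) was the steadiest of these factors. It stood at 70.3, 76.0 and 70.7 CPM in control libraries 35, 36 and 37 and at 77.2, 70.2 and 63.6 CPM in the TFEB libraries 34, 41 and 43. The groups overlapped, with a log2 fold change of −0.04 (SE 0.10, edgeR adjusted p = 1.00). The table also splits Xbp1 into an unprocessed model and a processed model that lacks the 26 bases IRE1 removes. These bases, at positions 815 to 840 of the GENCODE vM21 transcript, are shown in capitals between the bases that flank them:
Xbp1: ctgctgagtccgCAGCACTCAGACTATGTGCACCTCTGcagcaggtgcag
Removing them shifts the reading frame and lengthens it from 267 to 371 codons in that transcript, which gives the active factor XBP1s.

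The processed model took a small share of the Xbp1 counts in every library, and the highest share was in TFEB 41. It was 3.59%, 6.56% and 5.93% in control libraries 35, 36 and 37, against 4.24%, 9.36% and 2.67% in the TFEB libraries 34, 41 and 43, from 21 to 90 of 770 to 1214 counts. The TFEB group held both the highest and the lowest share, around the 3 controls. The exact 95% binomial interval of TFEB 41, 7.62% to 11.42%, lay above the 5 other shares and overlapped the intervals of control 36 (5.16% to 8.20%) and, barely, control 37 (4.49% to 7.68%). The group means were 5.36% ± 1.56 and 5.42% ± 3.50 (SD, n = 3 each), a difference of 0.063 percentage points (exact two-sided permutation p = 1.0, where 0.1 is the smallest that 20 splits allow). The intervals take every assigned count as certain. Few reads can tell apart models that differ by 26 bases, so the intervals are too narrow, and no difference between libraries is read from them. Because the models differ by only 26 bases, the split is the quantifier's estimate and not a count of junction reads. Ern1, which encodes IRE1, stood at 26.9 to 33.2 CPM in the controls and 27.4 to 33.6 CPM in the TFEB group.

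**Figure D4:**
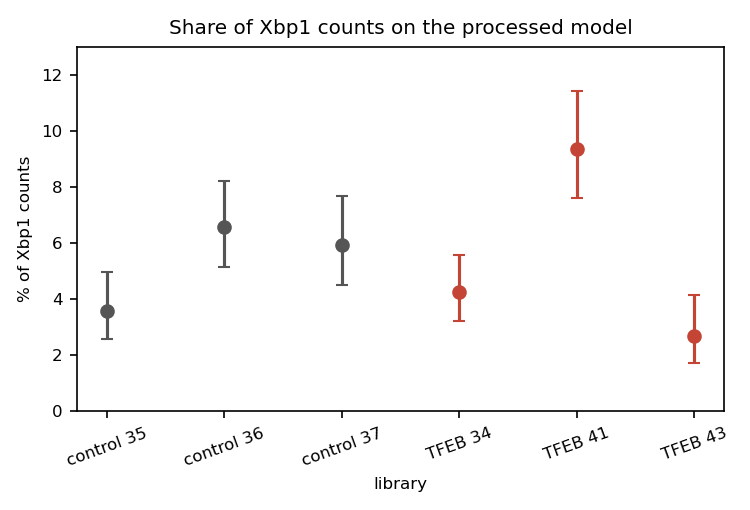
Share of Xbp1 counts assigned to the processed transcript model in each library (y axis, percent, from 0; points are shares and bars exact 95% binomial intervals, too narrow because they take every assigned count as certain). TFEB 41 has the highest share, 9.36%, and TFEB 43 the lowest, 2.67%, on either side of the 3 controls.

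ER-associated degradation returns misfolded proteins to the cytosol. Its 4 genes had 3 higher and 1 lower value in the TFEB group, with a median log2 fold change of 0.04, which was −0.05 without TFEB 34. None was highest in TFEB 41. Herpud1, a scaffold of the degradation complex and a strong stress target, stood at 184, 127 and 142 CPM in the controls and at 103, 110 and 157 CPM in the TFEB group. TFEB 34 and 41 were the lowest of the 6 libraries, and TFEB 43 lay within the controls (−0.29, SE 0.21, edgeR adjusted p = 1.00). Syvn1, the ubiquitin ligase HRD1, lay between 29.1 and 35.6 CPM, and its partner Sel1l between 120 and 132 CPM. Edem1, a lectin that picks glycoproteins for degradation, ran from 25.2 CPM in TFEB 43 to 58.2 CPM in TFEB 34.

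Of the 4 genes for entry into the ER 3 had higher values in the TFEB group, and 0 passed. Their median log2 fold change of 0.14 was 0.02 without TFEB 34. Sec61b, the small beta subunit of the channel, stood at 8.86, 12.1 and 8.48 CPM in the controls and at 17.3, 13.3 and 9.50 CPM in the TFEB group. TFEB 34 and 41 were above every control and TFEB 43 was not (0.45, SE 0.26, edgeR adjusted p = 1.00). Sec61a1, the pore subunit, ran from 59.0 to 77.3 CPM in the controls and from 54.7 to 95.1 CPM in the TFEB group. The translocon-associated genes Ssr1 and Ssr3 ran from 78.5 to 110 CPM and from 242 to 274 CPM over all libraries.

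Export from the ER and the factors that control it had a median log2 fold change near 0 (−0.03, and 0.10 without control 35), with 2 higher and 4 lower values in the TFEB group. The COPII coat genes were steady. Sec23a stood between 80.9 and 95.6 CPM, its cargo-binding partner Sec24d between 83.1 and 100 CPM, and the outer coat gene Sec31a between 144 and 182 CPM, all over the 6 libraries. The CREB3L factors, which are cleaved like ATF6 and drive secretory genes in matrix-making cells, were the variable members of this role. Creb3l1 (OASIS) ran from 7.11 CPM in TFEB 43 to 15.1 CPM in TFEB 41. Creb3l2 (BBF2H7) stood at 67.6, 46.3 and 30.7 CPM in the controls and 52.8, 39.6 and 31.6 CPM in the TFEB group. Each group of Creb3l2 thus held high and low libraries, and its log2 fold change of −0.22 (SE 0.32) was 0.10 without control 35.

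The collagen chaperones and the KDEL receptor had a median log2 fold change of 0.34 (from 0.08 to 0.61 with a library left out), and all 3 had wide intervals. Kdelr3 had both the largest estimate and the widest interval of the 37 genes. Serpinh1, which encodes the procollagen chaperone HSP47 (Entrez 12406, chromosome 7, 99345375 to 99353239), was measured at 329, 474 and 310 CPM in control libraries 35, 36 and 37 and at 576, 490 and 294 CPM in the TFEB libraries 34, 41 and 43. TFEB 34 and 41 were above every control and TFEB 43 was the lowest library. The estimate was 0.29 on the log2 scale (SE 0.29, edgeR adjusted p = 1.00), and 0.08 without TFEB 34. Fkbp10, the collagen prolyl isomerase FKBP65 (Entrez 14230, chromosome 11, 100415694 to 100424840), was measured at 45.03, 48.3 and 35.9 CPM in the controls and at 81.0, 50.2 and 32.6 CPM in the TFEB group. TFEB 34 was 1.61 times the next library, and the log2 fold change of 0.34 (SE 0.32, edgeR adjusted p = 1.00) turned to −0.06 without it. Kdelr3, a receptor that returns escaped ER proteins from the Golgi (Entrez 105785, chromosome 15, 79516408 to 79527739), was measured at 16.0, 19.3 and 10.6 CPM in the controls and at 32.9, 23.6 and 8.76 CPM in the TFEB group. It held the same order in the TFEB group as the other 2 genes, with 0.51 (SE 0.47, edgeR adjusted p = 1.00), or 0.08 without TFEB 34. Its paralogue Kdelr1 was level, at 97.9 to 117 CPM over the 6 libraries. All 3 genes of this role were highest in TFEB 34, as were 26.9% of all genes.

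The collagen chaperones and Kdelr3 were ordered across libraries much as the procollagens were. The procollagen level, the mean log2 CPM of Col1a1, Col1a2, Col3a1, Col5a1 and Col5a2 relative to the 6 libraries, was 0.20, 0.87 and −1.47 in control libraries 35, 36 and 37, against 1.59, 0.71 and −1.89 in the TFEB libraries 34, 41 and 43. Col1a1 alone stood at 1088, 1511 and 260 CPM in the controls and at 2756, 1678 and 182 CPM in the TFEB group. The level spanned 3.48 log2 units, or 11.2-fold, and both groups held high and low libraries. Of the 37 genes, 31 had a positive Pearson r with it over the 6 libraries, against 50.2% of all genes. In 12 of 37 (32.4%) the exact permutation p was under 0.05, all with a positive r. Of all genes, 33.7% reached this in either direction, and 17.7% did so with a positive r, so a relation to this level was common in these libraries. Whether the members differ from other genes in this was not tested. With p adjusted over all 13565 genes, 5 of the 37 passed, against 8.57% of all genes, or 5.16% with a positive r. By rho, adjusted in the same way, 2 of the 37 passed, Edem1 and P4hb, against 929 of all 13565 genes.

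The 5 genes came from 4 of the 7 roles. Sec61a1 had r = 0.986 and rho = 0.943 (exact permutation p = 0.00278 and 0.0167, adjusted over all genes 0.0457 and 0.0852), and Kdelr3 had r = 0.973 and Fkbp10 r = 0.913 with the same rho and p-values. P4hb had r = 0.972 and Edem1 r = 0.953, both with rho = 1.0 (exact permutation p = 0.00139 for r, the smallest that 720 orders can give, and 0.00278 for rho; adjusted over all genes 0.0388 and 0.0406). Serpinh1 just missed the threshold, with r = 0.915 and rho = 0.943 (exact permutation p = 0.00556 and 0.0167, adjusted over all genes 0.0523 and 0.0852). TFEB 43 and control 37 were the libraries farthest from the median level. Over the other 4 libraries, r was 0.95 for Sec61a1, 0.928 for Kdelr3, 0.982 for P4hb, 0.995 for Edem1, 0.924 for Fkbp10 and 0.924 for Serpinh1. These genes were picked by r over the same libraries, so the values describe them and add no separate evidence. Among the other genes with an unadjusted p under 0.05, r over those 4 libraries was lower for Creb3l1 (0.461 against 0.938) and Ssr1 (0.648 against 0.887). It was also lower for Dnajc3 (0.624 against 0.865) and Pdia3 (0.847 against 0.907). For Atf4 it was higher (0.981 against 0.855), and for Xbp1 nearly the same (0.831 against 0.826). Over the 6 libraries Xbp1 had an exact permutation p of 0.0333 for r, adjusted over all genes 0.116. Slopes were well below 1: a doubling of procollagen went with 0.50 log2 units of Kdelr3, 0.30 of Fkbp10, 0.30 of Edem1, 0.27 of Serpinh1 and 0.21 of P4hb and Sec61a1.

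The ER chaperones, lectin chaperones and isomerases were spread from −0.718 for Canx to 0.972 for P4hb. BiP had r = −0.519 and rho = −0.543 (exact permutation p = 0.289 and 0.297). Hsp90b1 had r = 0.0993 (exact permutation p = 0.890), Sdf2l1 0.239 (0.725) and Hyou1 −0.221 (0.615). In the same roles Dnajc3 had r = 0.865 (exact permutation p = 0.0264), Pdia3 0.907 (0.0111) and Pdia4 0.817 (0.0514), none of which passed after adjustment. The exact permutation p of Canx was 0.0958, and Herpud1, a degradation gene, had r = −0.611 (0.214). BiP was high in TFEB 43, where procollagens were lowest, and in TFEB 41, and low in TFEB 34, where they were highest. Differences between these correlations were not tested.

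**Figure D5:**
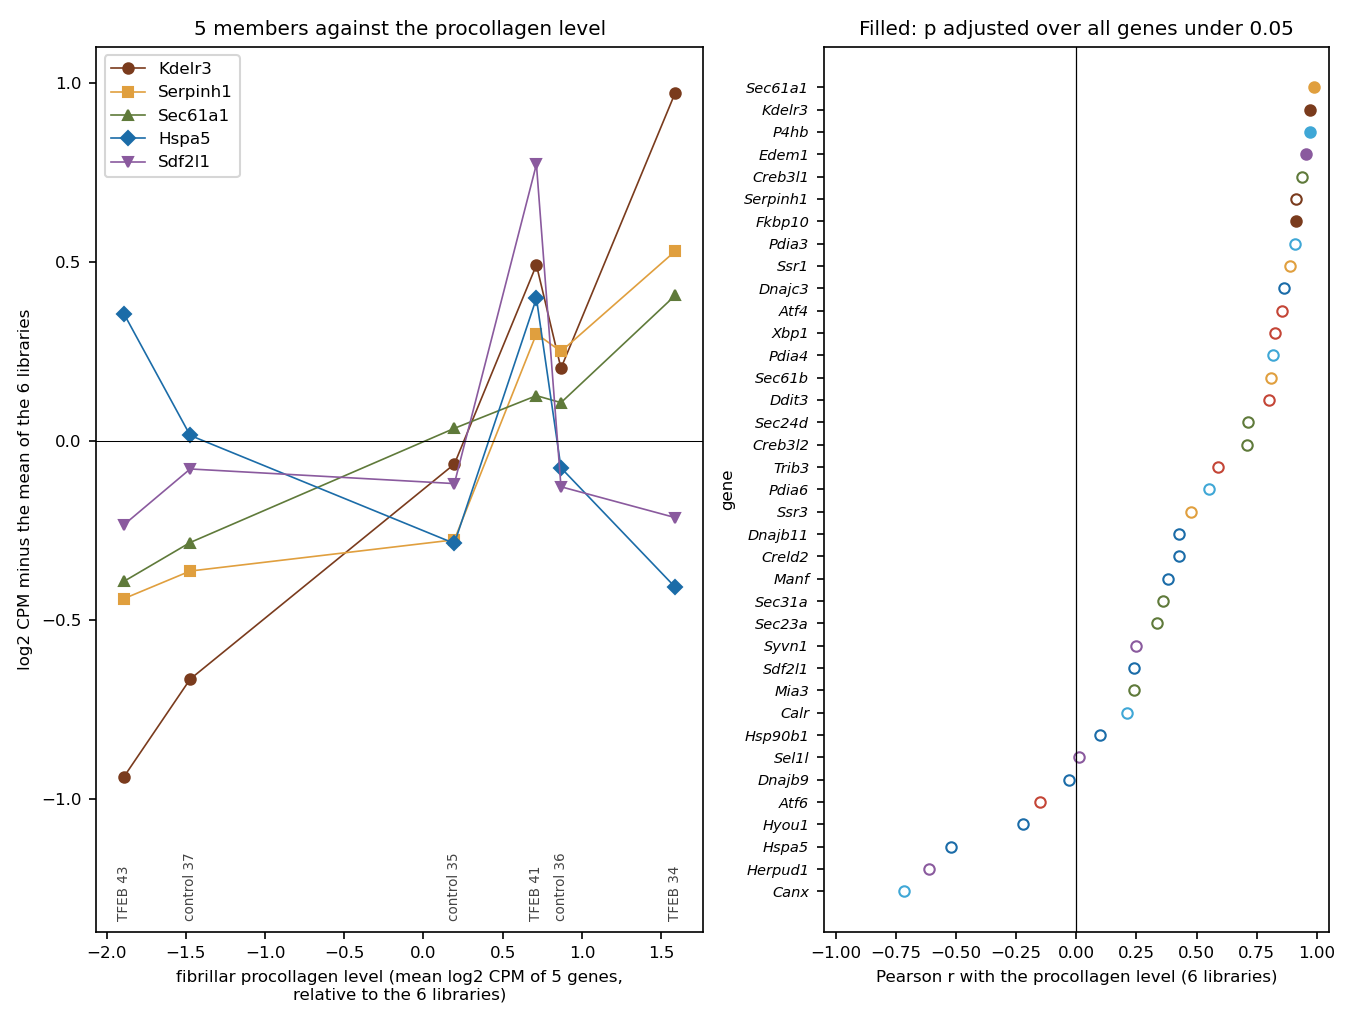
Left, log2 CPM of 5 genes minus their mean over the 6 libraries (y axis) against the procollagen level (x axis, log2 units; each point is 1 library, named along the bottom). Right, Pearson r of each of the 37 genes with the procollagen level over 6 libraries, filled in the 5 genes whose exact permutation p adjusted over all genes is under 0.05: Sec61a1 is highest at 0.986 and Canx lowest at −0.718.

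Markers of 3 kinds of cell were ordered by library along with the procollagens, the third mostly in the opposite direction. The summed CPM of the 6 activated fibroblast markers, which include Postn and Cthrc1, ran from 398 to 3937 in the controls and from 234 to 7321 in the TFEB group, with the highest value in TFEB 34. That of the 7 macrophage markers ran from 497 to 877 and from 424 to 1224, also highest in TFEB 34. That of the 9 cardiomyocyte markers was lowest in TFEB 34 and highest in TFEB 43, from 71360 to 98680 in the controls and from 58510 to 107000 in the TFEB group. Of these lists, 6 of 6, 6 of 7 and 5 of 9 markers had a higher value in the TFEB group, 0 passed the edgeR test in any, and no marker was at 0. In heart tissue, fewer cells of a type and less RNA per cell cannot be told apart, and the part of cell make-up in the order of the collagen chaperones was not tested. With the procollagen level as a covariate, the log2 fold changes between the groups were 0.18 for Serpinh1, 0.18 for Fkbp10 and 0.23 for Kdelr3. Without it they were 0.29 (SE 0.29), 0.34 (SE 0.32) and 0.51 (SE 0.47). None of the 3 was called in either fit, and the change between the fits was not tested.

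Markers of 2 other kinds of cell had mostly lower values in the TFEB group. Of the 5 adipocyte markers 4 were tested, all 4 had groups that did not overlap and an unadjusted edgeR p under 0.05, and 0 passed after adjustment. Their summed CPM was 40.8, 213 and 14.4 in control libraries 35, 36 and 37, against 0.127, 9.15 and 6.53 in the TFEB libraries 34, 41 and 43, with Adipoq and Cidec at 0 in TFEB 34. Of the 8 markers of resident fibroblasts 6 were lower, among them Lamc3, Scara5 and Dpep1, and 0 passed. Their sum was highest in control 35 at 4552 CPM and ran from 2829 to 3823 CPM in the other libraries. The part of either list in the members' values was not tested.

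In TFEB 41, where 13 of the 37 genes stood highest, the sums of the activated fibroblast, macrophage and cardiomyocyte markers were 2675, 755 and 85720 CPM, each between those of other libraries. The 5 smooth muscle markers summed highest there, at 679 CPM against 401 to 613 CPM elsewhere. Only 1 of the 5, Acta2, was itself highest in TFEB 41, and 2 were highest in TFEB 34. The mean log2 CPM of the 5 markers, relative to the 6 libraries, was 0.38 in TFEB 41 and 0.53 in TFEB 34. Among them Acta2, whose promoter drives the Cre, ran from 100.2 to 137.5 CPM in the controls and from 173.9 to 291.1 CPM in the TFEB group, without overlap (log2 fold change 0.98, SE 0.22, edgeR adjusted p = 1.00). The 5 endothelial markers summed to 1141 CPM in TFEB 41 and 959 to 1203 CPM elsewhere. The 5 plasma and B cell markers, of which 3 passed the filter on low counts, summed to 3.37 CPM there and were highest in control 36 at 38.6 CPM. The part of these cells in the chaperone values was not tested.

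Of the 8 members with ERSE in their promoter window, 5 were highest in TFEB 41 (Hspa5, Hsp90b1, Creld2, Calr and Pdia6), and Canx, Dnajc3 and Syvn1 were highest in other libraries. Among the 10 other tested genes that hold ERSE, 1 was highest in TFEB 41, and 8.37% of all genes were. With so few genes these shares cannot be told apart, and a relation of ERSE to the values in TFEB 41 was not tested. Sdf2l1, with the largest step in TFEB 41, holds none of the 5 motifs in its window.

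Genes of the same pathways outside the list were also not called. Among 24 other folding enzymes 17 had higher values in the TFEB group (median log2 fold change 0.04), among 24 other stress sensors and ATF4 or CHOP targets 14 (0.02), and among 16 other degradation genes 8 (0.002). Among 23 other translocation and glycosylation genes 12 had higher values (0.009), and among 30 other export and retrieval genes 15 (−0.001). Of the 13 collagen hydroxylation and glycosylation enzymes 11 had higher values (0.21), and 10 were highest in TFEB 34. In these lists 0 genes passed after adjustment, and 2 had an unadjusted edgeR p under 0.05 (1.21% of all genes). These were Rpn1, a subunit of the oligosaccharyltransferase, and Tmed9, a cargo receptor of early secretory vesicles.

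Tmed9 stood at 80.7, 80.1 and 75.5 CPM in control libraries 35, 36 and 37 and at 97.2, 94.5 and 90.2 CPM in the TFEB libraries 34, 41 and 43. Every TFEB library was above every control (log2 fold change 0.25, SE 0.08, edgeR adjusted p = 1.00). Rpn1 stood at 87.0, 87.3 and 83.3 CPM in the controls and at 97.1, 97.2 and 102 CPM in the TFEB group (0.20, SE 0.08, edgeR adjusted p = 1.00). Its groups did not overlap either, and nor did those of Plod1, a collagen lysyl hydroxylase (145 ± 20.1 and 174 ± 16.4 CPM, SD, n = 3 each). Slc7a11, the cystine transporter induced by ATF4, stood at 8.25 to 8.79 CPM in the controls and at 9.23 to 11.9 CPM in the TFEB group (0.36, SE 0.15, edgeR adjusted p = 1.00). Tmed9, Rpn1, Plod1 and Slc7a11 had the smallest p of their lists. Each was the only gene of its list with separated groups. The other folding enzymes and the other degradation genes had 0, and 4.75% of all genes were separated.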

How the data were processed

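The 6 mouse heart libraries form 2 groups of 3, mapped by their titles. The submitters' processing notes list RSEM 1.3.1, DESeq2 1.4.5, Bowtie2 2.3.4.3 and HISAT2 2.1.0, with no role for each, and build mm10. The authors deposited estimated counts and TPM for each of 62498 RefSeq transcripts, per the file headers. The other 20 value columns (FPKM, normalised counts and the authors' means) were not used. The sources used here give no strand setting or annotation release, so overlapping genes and close paralogues are uncertain. Estimated counts were summed per Entrez gene, rounded, and matched to symbols, and 117 genes without a symbol (0.51% of counts) stayed in the tests under their number.

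Groups were compared with the edgeR 4.0.16 quasi-likelihood test in R 4.3.3 (filterByExpr, TMM, two-sided, Benjamini-Hochberg over 13565 genes), called at an adjusted p under 0.05, with 95% intervals. TPM values the authors deposited were used for levels between genes and in limma 3.58.1 as log2(TPM + 1) and log2(TPM + 0.1). Correlations over the 6 libraries used log2 CPM, with exact two-sided permutation p-values over all orders and Benjamini-Hochberg over all genes tested, or over the 37 genes as first planned. Other alternatives were RLE and upper-quartile scaling, DESeq2 1.42.0, limma-voom, 2 other count filters, procollagen or cardiomyocyte level as covariate, and each library left out. Medians by role, the correlations over all genes and the Xbp1 correlations were added after seeing the data. Sequences are from RefSeq (GRCm38.p6) and GENCODE vM21. All members are named, with values in every library for a fixed subset (collagen chaperones, Hspa5, Xbp1, Atf4, Ddit3 and separated genes), others by range or, where given in full, chosen after their values were seen. Outside the list, Tfeb, Col1a1 and up to 3 genes with the smallest p per pathway or marker list could be named, of which only those a result touches are, and Myh6, Ern1, Kdelr1 and cytosolic chaperones were added after their values were seen. The members and lists were chosen with earlier results of these data known. On simulated counts for 13565 genes in this comparison, the edgeR test recovered 32% of 100 genes changed 2-fold and 76% of 100 changed 4-fold, with 10 false calls. Replicate numbers are not shared between the groups, so libraries were not paired.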

Additional observations from a re-analysis of the deposited data

How the results depend on the processing

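No member was called under any alternative, and 17 of the 37 kept their sign under all of them. DESeq2 called 1 of all genes. Members with separated groups numbered 1 with RLE and 1 with upper-quartile scaling (Calr in both), 0 on log2(TPM + 1), and from 3 to 16 with a library left out, 16 without TFEB 43. Of all genes, 4.12% to 4.75% were separated under these settings, and 8.16% to 20.3% with a library left out, 20.3% without TFEB 43. Adjusted over the 37 relations alone, 6 genes passed the procollagen correlation and 16 did on log2(TPM + 1). The share of all genes under that adjustment is not given here, so these counts are not read as particular to the members. Adjusted over all genes 5 passed, against 8.57% of all genes. The difference in the processed Xbp1 share ran from −1.90 points without TFEB 41 to 1.44 points. Sec31a stood at 0.0014 under both TPM settings, and the cause was not tested.

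With a library left out, 20 log2 fold changes crossed 0. They ran from −0.015 to 0.13 for Syvn1, −0.11 to 0.013 for Sec23a, −0.076 to 0.097 for Sec31a and −0.46 to 0.10 for Creb3l2. They ran from −0.12 to 0.019 for Dnajb9, −0.015 to 0.16 for Ddit3, −0.23 to 0.14 for Trib3 and −0.035 to 0.35 for P4hb. For Edem1 the range was −0.089 to 0.48, for Sec61a1 −0.072 to 0.31, for Fkbp10 −0.057 to 0.61 and for Dnajb11 −0.0043 to 0.12. For Sdf2l1 it was −0.099 to 0.47, for Creld2 −0.036 to 0.16, for Manf −0.0035 to 0.28 and for Pdia4 −0.016 to 0.35. For Creb3l1 it was −9.0e-06 to 0.44, for Dnajc3 −0.21 to 0.016, for Canx −0.067 to 0.19 and for Xbp1 −0.11 to 0.027. No paired analysis was possible because the groups share no replicate numbers. With 3 libraries a group, the test recovered 32% of simulated 2-fold changes over all genes, and smaller changes were not simulated.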

Other observations

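Chaperones of the cytosol and mitochondria, chosen after their values were seen, did not have their highest value in TFEB 41, as was so for most genes, since 8.37% of all genes did. Hspa8, the constitutive cytosolic Hsp70, stood at 1621, 1693 and 1795 CPM in control libraries 35, 36 and 37 and at 1444, 1428 and 1534 CPM in the TFEB libraries 34, 41 and 43. Every TFEB library was below every control (log2 fold change −0.21, SE 0.15, edgeR adjusted p = 1.00). Hsp90ab1, the constitutive cytosolic Hsp90, ran from 1440 to 1586 CPM and from 1255 to 1559 CPM. The heat-inducible Hspa1a ran from 4.67 to 8.28 CPM in the controls and from 3.47 to 4.90 CPM in the TFEB group. The mitochondrial chaperones Hspd1 and Hspe1 were highest in TFEB 43, at 561 and 92.1 CPM. Hspa1b, Dnajb1, Hsph1 and Hsp90aa1 were highest in control 36, and Hspa4 in TFEB 43.

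The share of Xbp1 counts on the processed model was also set against the other 36 genes over the 6 libraries, a choice made after seeing the data. Creld2 came closest, with r = 0.961 and rho = 1.0 (exact permutation p = 0.00139 and 0.00278), and r = 0.895 without TFEB 41 and 43. Manf had r = 0.934 and rho = 0.886 (exact permutation p = 0.00833 and 0.0333), and 0.771 without them. Sdf2l1 had r = 0.855 and rho = 0.714 (exact permutation p = 0.0194 and 0.136), and 0.425 without them. An unadjusted exact p under 0.05 was reached by 3 of the 36 (8.33%) and by 260 of all genes (1.92%). Adjusted over all genes 0 passed, and the adjusted p of each was 1.0. BiP had r = 0.382 (exact permutation p = 0.461). Apart from Creld2, Manf and Sdf2l1, r ran from −0.609 for Sec23a to 0.826 for Dnajb11. Without TFEB 41 and 43 that of Dnajb11 was −0.643. Hsp90b1 had r = 0.811 over the 6 libraries, Edem1 0.394, Dnajb9 −0.0533, Syvn1 −0.308 and Herpud1 −0.576. The share is the quantifier's estimate, so no relation is read from these values.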
